A study of Mus musculus with 13 samples.

Results

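Fatty acid oxidation genes and targets of PPARA were followed in jejunal epithelial cells of mice whose daily feeding windows left out 1 meal. The set held 38 genes, taken by symbol from a list chosen for their roles in fatty acid breakdown and its control, out of 21868 genes in the count table. All 38 had at least 1 count, and 37 passed the filter on low counts. The remaining gene, Fgf21, which encodes a secreted fasting hormone, had 1 count in BSF_C replicate 1 and none in the other 12 libraries, so nothing can be said of its changes.

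Polyadenylated RNA was sequenced from sorted EpCAM+ cells of a 5 cm piece of jejunum that lacked CD45, CD11b, CD3 and B220 on their surface, with 13 libraries in 5 groups. Lunch skipping (LSF, 3 libraries) gave food at ZT12 to ZT16 and again at ZT20 to ZT24, where ZT counts hours after lights on. Breakfast skipping (BSF, 2 libraries) gave it at ZT16 to ZT24, and dinner skipping (DSF, 2 libraries) at ZT12 to ZT20, each for 2 weeks. The control group (con) and BSF_C, which the labels describe as breakfast skipping combined with control, had 3 libraries each. Their feeding times, the hour of sampling, and the strain, age and sex of the mice are not given in the labels. The mice are said to have shared 1 environment and cage, but the groups had different feeding windows, and which mice were caged together is not settled here. The labels name biological replicates without tying a library to an animal.

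Fatty acids are activated to acyl-CoA, carried into mitochondria on carnitine, and shortened there by repeated rounds of dehydrogenation, hydration, a further dehydrogenation and thiolytic cleavage. Very long chains are first shortened in peroxisomes, and a side route in the endoplasmic reticulum oxidises the omega end. PPARA is a nuclear receptor that binds fatty acids and, paired with RXR, switches on many genes of these routes. In the small intestine it is active in enterocytes, which meet dietary fat at every meal and respond to its absence in fasting.

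The PPARA and RXR pair binds a direct repeat with 1 base between its copies, written here as AGGTCANAGGTCA. Promoter windows from 250 bases before to 50 bases after the transcript start were matched by symbol for 31 of the 38 genes in RefSeq sequences of GRCm38.p6 (not for Angptl4, Crat, Acaa2, Decr1, Cyp4a10, Cyp4a14 and Cyp4a31), and both strands were searched with up to 2 mismatches at the 12 fixed bases. Matches stood in 3 of 31 genes (9.68%), against 1190 of 27025 genes with a window (4.4%). The 3 stretches are shown because they are the ones in the set that hold a match, here in capitals, with 15 bases on each side, 5′ to 3′ on the strand of the gene.
Acot12: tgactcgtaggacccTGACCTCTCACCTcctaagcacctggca
Echs1: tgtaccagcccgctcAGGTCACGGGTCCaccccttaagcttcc
Etfa: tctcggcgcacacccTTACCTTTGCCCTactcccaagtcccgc
The Acot12 stretch lies at chr13:91741396-91741438 on the plus strand of GRCm38, 110 bases before the start at its first element base, with 1 mismatch and the element on the opposite strand. The Echs1 stretch lies at chr7:140116477-140116519 and the Etfa stretch at chr9:55512293-55512335, both of genes on the minus strand and both with 2 mismatches. A match is a description of letters, and a window without a match, such as those of Pdk4, Acot1 and Acadl, says only that these letters are not in it. The RNA levels of these 3 genes, given with their roles, did not share 1 pattern: Acot12 was called higher in LSF than in BSF and DSF, Echs1 in LSF and DSF than in BSF, and Etfa in no comparison.

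The con libraries stood apart from the other 10 across all genes, a distance that every comparison with con contains. Library totals were 4851239 to 5202146 counts in con and 7127769 to 8589351 elsewhere, and the first principal component, with 77.4% of the variance, separated con. Summed levels of 9 epithelial markers, in counts per library scaled to CPM with trimmed-mean (TMM) factors, were 4700 to 5570 in all libraries, and none was at 0. These sums hide opposite shifts of single markers. Cdh1, Krt18, Cdx1 and Cdx2 had their highest group mean in con, and Epcam, Vil1, Krt8, Krt20 and Fabp2 their lowest. Group means of Cdh1 were 2020 in con and 718 to 851 elsewhere, and those of Krt20 182 and 554 to 684. Villus enterocyte markers (11 genes) summed to 36500 to 37200 in LSF, 30000 to 32200 in BSF_C, 30900 to 31100 in BSF, 24300 to 24800 in DSF and 5940 to 6600 in con. Skin keratinocyte markers (14 genes) summed to 602 to 698 in con and 4.79 to 10.2 elsewhere. Heart and striated muscle markers (20 genes) summed to 16.8 to 23.5 in con, with 8 genes at 0, 261 to 310 in BSF and BSF_C, 677 to 782 in LSF and 719 to 727 in DSF. Leukocyte markers (10 genes) summed to 42 to 47.9 in con and 136 to 215 elsewhere, and kidney tubule markers (8 genes) to 12.8 to 20.5 and 82.8 to 152. Hepatocyte and adipocyte markers (8 genes each) summed to at most 12.1 and 4.03 in every library. No batch is named in the labels, and a technical difference of the con libraries cannot be told apart from the diet. In these sorted bulk samples, fewer cells of a type and less RNA per cell cannot be told apart.

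Among the 37 tested genes, LSF had the highest group mean for 27 and con the lowest for 27, while across all tested genes LSF was highest for 21.3% and con lowest for 46.5%. The genes lowest in con include Cyp4a14 and Cyp4a31, at 0 counts in con, and Cyp4a10 and Acaa1b, at no more than 2 and 5 counts in a con library. All of these passed the filter only through the other groups. With con set aside, LSF was the highest of the 4 other groups for 30 of 37 genes, against 31.4% of all genes. The summed level of the set was 3925 ± 35.5 CPM in LSF (SD, n = 3), 3141 ± 98.8 in DSF (n = 2), 3240 ± 69.4 in BSF_C (n = 3), 3125 ± 37.7 in BSF (n = 2) and 3007 ± 155 in con (n = 3). Within groups the genes were steady: among genes with a mean of at least 5 CPM the median coefficient of variation was 4.44% in LSF, 3.52% in DSF, 5.69% in BSF_C, 3.9% in BSF and 8.21% in con. Per kilobase of merged exons, the highest LSF level in the set was that of Ehhadh (142 CPM per kb), a bifunctional enzyme of peroxisomes, and the highest con level that of Cpt2 (158 CPM per kb), the inner carnitine palmitoyltransferase.

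**Figure D1:**
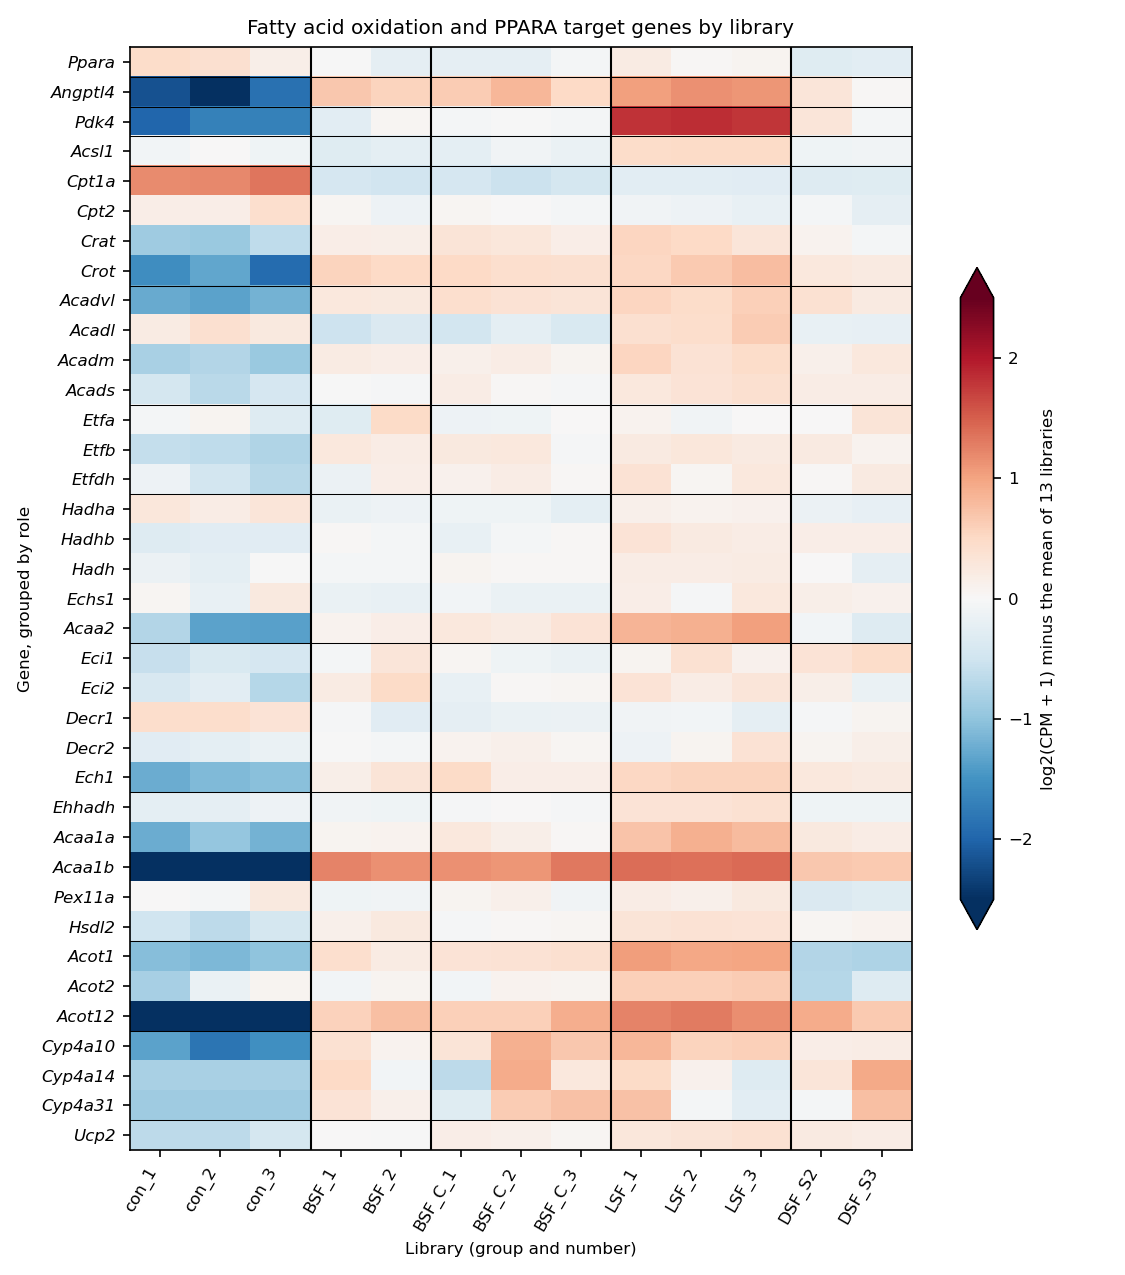
Level of each of the 37 tested genes (rows, grouped by role) in each of the 13 libraries (columns), as log2(CPM + 1) minus the mean over the libraries, with red above and blue below that mean and arrows on the colour scale where values go past its ends. Pdk4 is darkest red in the 3 LSF libraries, Acaa1b and Acot12 are darkest blue in the 3 con libraries, and Cpt1a is red in con alone.

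Lunch skipping split the food over 2 windows, while breakfast and dinner skipping left 1 unbroken window, and the first comparisons ask how the set differed between them. The set stood higher with lunch skipping in each case, with Pdk4, Acot1, Acadl and Acaa2 among the largest differences. Against BSF, 22 of the 37 tested genes were higher in LSF and 0 were lower (edgeR quasi-likelihood test, Benjamini-Hochberg adjusted p under 0.05 over 14300 genes), where 16% of all genes were higher and 13.6% lower. Against DSF, 20 were higher and 0 lower, where 9.06% of all genes were higher and 7.03% lower. Against BSF_C, 26 were higher and 1, Cpt2, was lower, where 17.2% of all genes were higher and 15.6% lower. The median log2 fold change of the set was 0.28 against BSF, 0.29 against DSF and 0.27 against BSF_C, and that of all genes was -0.01, 0.00 and -0.01. These 3 comparisons share the LSF libraries. At an unadjusted p under 0.05, edgeR gave 24 genes higher and 0 lower against BSF and the same counts against DSF, and DESeq2 and limma-voom also called 0 lower in both. The libraries of the groups did not overlap for 26 genes higher and 0 lower against BSF (28% and 27.9% of all genes), for 27 and 1 against DSF (22.7% and 22.4%), and for 27 and 1 against BSF_C (23.7% and 23.4%). Scaling by library totals alone left 18 higher and 1 lower, Cpt2, against BSF, with all genes at 12.3% higher and 20.8% lower. It left 18 and 0 against DSF (7.2% and 11.9% of all genes) and 19 and 1 against BSF_C (13.1% and 22.7%). Villus enterocyte marker sums were also highest in LSF and lowest in DSF outside con, and stem cell marker sums were 1460 to 1480 CPM in LSF against 1890 to 2030 in BSF, BSF_C and DSF. Heart and striated muscle marker sums were 677 to 782 CPM in LSF and 719 to 727 in DSF, against 261 to 310 in BSF and BSF_C. The part of these 3 lists in the result was not tested.

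**Figure D2:**
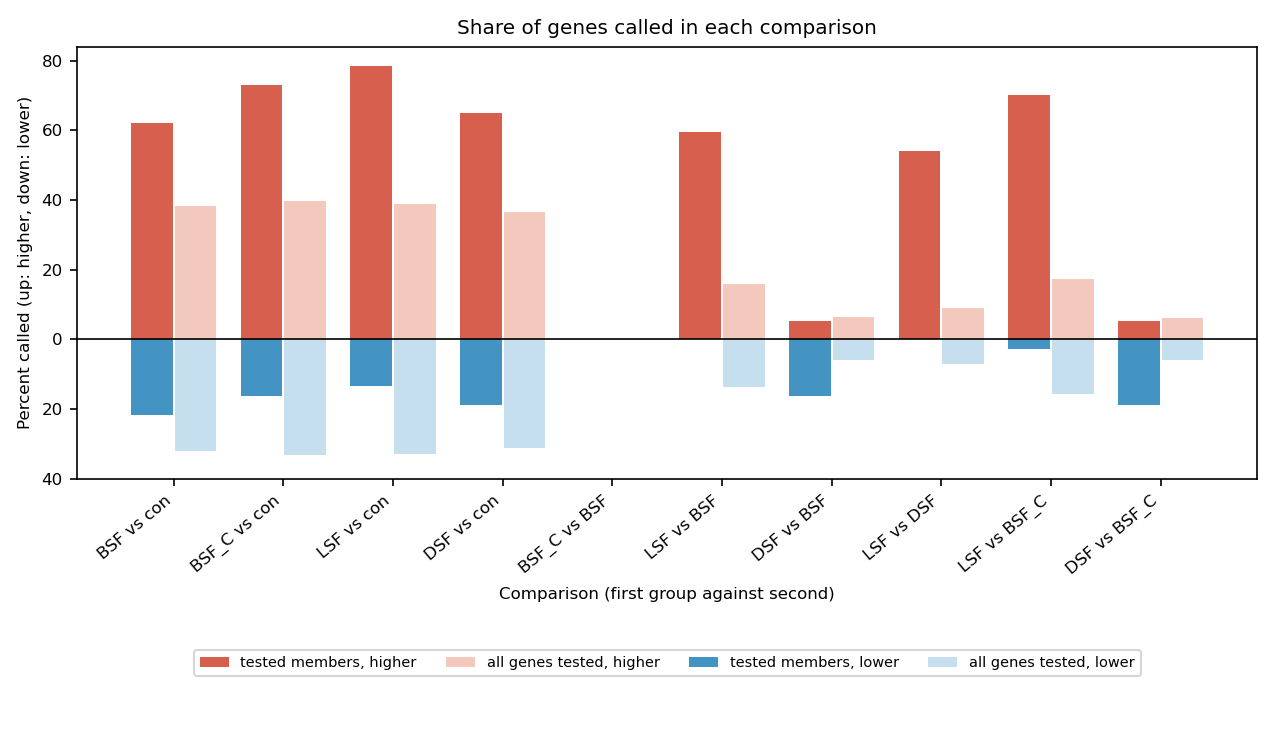
Percent of the 37 tested genes of the set (dark bars) and of all 14300 tested genes (pale bars) called higher (up) or lower (down) in each of the 10 comparisons, named first group against second. In the 3 comparisons of LSF with the groups other than con, the dark bars stand far above the pale bars upward and at or near 0 downward.

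Pdk4, the kinase that shuts pyruvate out of the citric acid cycle when fat is burned, had the largest rise against BSF and BSF_C, and the second largest, after Acot1, against DSF. Its levels were 106.5, 111 and 106 CPM in LSF, 37.3 and 28.9 in DSF, 28.9, 29.7 and 28.8 in BSF_C, 24.9 and 31 in BSF and 6.81, 8.53 and 8.52 in con. All LSF libraries lay above every other library, and con lay lowest. The log2 fold change was 1.94 against BSF (SE 0.098, edgeR adjusted p = 3.4e-27), 1.70 against DSF (SE 0.0965, adjusted p = 2.04e-24) and 1.89 against BSF_C (SE 0.0845, adjusted p = 2.15e-30). Pdk4 lies at chr6:5483351-5496309 of GRCm38.

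The receptor gene itself moved less. Ppara was at 53.5, 47 and 48.4 CPM in LSF, 37.3 and 38.5 in DSF, 39.3, 39.2 and 44.4 in BSF_C, 45.9 and 39.3 in BSF and 64, 60.9 and 51.1 in con. It was highest in con and lowest in DSF, and the LSF libraries lay above those of BSF, BSF_C and DSF while overlapping con. The log2 fold change of LSF was 0.39 against DSF (SE 0.1, adjusted p = 0.00286) and 0.28 against BSF_C (adjusted p = 0.0098). Against BSF it was 0.23 and did not pass (adjusted p = 0.07).

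Angptl4, a secreted inhibitor of lipoprotein lipase and a much used readout of PPAR activity, was at 38.9, 42 and 41.2 CPM in LSF, 23 and 19 in DSF, 29.2, 33.6 and 26.7 in BSF_C, 30.02 and 27.5 in BSF and 3.3, 1.87 and 4.38 in con. LSF was the highest group and con the lowest, with no overlap of either with the rest, and DSF lay below BSF. The rise in LSF was 0.50 on the log2 scale against BSF (SE 0.114, adjusted p = 0.000406) and 0.95 against DSF (SE 0.122, adjusted p = 2.86e-09).

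Acsl1, which activates long chain fatty acids to acyl-CoA, was at 128, 130.3 and 131 CPM in LSF, 87.2 and 88 in DSF, 78.4, 87.4 and 83.9 in BSF_C, 75.5 and 79.2 in BSF and 88.8, 94.8 and 86.8 in con. The LSF libraries stood alone above all others, and the remaining groups lay close together. Its log2 fold change was 0.75 against BSF (SE 0.0721, adjusted p = 1.2e-13) and 0.57 against DSF (SE 0.0715, adjusted p = 1.52e-09).

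Of the 4 carnitine transfer genes, 2 were higher in LSF than in BSF and 2 than in DSF, with small differences. Cpt1a, the outer carnitine palmitoyltransferase and the controlled entry point of mitochondrial oxidation, was at 250.3, 252 and 245 CPM in LSF, 241 and 242 in DSF, 224, 206.5 and 223 in BSF_C, 225 and 214 in BSF and 684, 696 and 766 in con. Con lay far above the other groups, which fell within a narrow band. LSF was higher than BSF by 0.18 in log2 units (SE 0.0608, adjusted p = 0.0166). LSF exceeded DSF by 0.04, which did not pass (adjusted p = 0.709). Cpt2 was not called against BSF (-0.10) or DSF (-0.01). Crat, which makes acetylcarnitine, was higher in LSF by 0.30 against BSF and 0.43 against DSF. Crot, which moves shortened chains out of peroxisomes, was at 111, 122 and 133 CPM in LSF, 93.4 and 90.4 in DSF, 109.8, 104 and 102 in BSF_C, 114 and 110.2 in BSF and 25.8, 31.2 and 19.8 in con. LSF and BSF overlapped (0.12, adjusted p = 0.23), while DSF lay below both, with LSF higher than DSF by 0.41 (adjusted p = 4.05e-05).

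All 4 acyl-CoA dehydrogenases, which take the first electrons from chains of different lengths, were higher in LSF than in BSF, and 3 of 4 than in DSF. Acadl, the long chain enzyme, had the largest difference, with 54.3, 55.8 and 63.5 CPM in LSF, 35.9 and 35.5 in DSF, 29.5, 34.5 and 31 in BSF_C, 28.4 and 31.4 in BSF and 47.3, 54.3 and 48.6 in con. LSF lay above BSF, BSF_C and DSF with no overlap, and con was nearer to LSF than to them. The log2 fold change was 0.95 against BSF (SE 0.101, adjusted p = 4.46e-12) and 0.69 against DSF (SE 0.0988, adjusted p = 5.25e-08). Acadvl, Acadm and Acads, for very long, medium and short chains, rose by 0.29, 0.28 and 0.36 against BSF. Mean levels in LSF (SD, n = 3) were 229.5 ± 11.8 CPM for Acadvl, 71.3 ± 4.43 for Acadm and 105 ± 4.49 for Acads, and in BSF (n = 2) 188 ± 1.8, 59 ± 1.13 and 81.6 ± 1.29. Only Acads was not called against DSF (0.15, 94.4 ± 0.662 CPM in DSF). The 3 electron transfer genes that accept those electrons, Etfa, Etfb and Etfdh, were called in neither comparison, with log2 fold changes from -0.19 (Etfa against DSF) to 0.21 (Etfdh against BSF). Etfa, whose promoter match is shown above, was at 11 ± 0.657 CPM in LSF, 12.1 ± 4.86 in BSF and 10.2 ± 1.49 in con, Etfb at 43.2 ± 1.2 in LSF and 42.5 ± 1.87 in BSF, and Etfdh at 21.3 ± 2.45 and 18.3 ± 3.

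All 5 genes of the later steps of the mitochondrial cycle were higher in LSF than in BSF, and 3 of 5 than in DSF. Hadha, the large subunit of the trifunctional protein, was at 113.5, 109.6 and 111 CPM in LSF, 93.7 and 89.7 in DSF, 96.3, 96.3 and 86.8 in BSF_C, 92.6 and 94 in BSF and 126, 118 and 128 in con. LSF lay between con and the others, without overlap. Its log2 fold change was 0.25 against BSF (SE 0.0707, adjusted p = 0.00396) and 0.28 against DSF (adjusted p = 0.00254). Acaa2, the mitochondrial thiolase that cuts off acetyl-CoA, changed most, with 37.7, 39.2 and 43.2 CPM in LSF, 19.6 and 16.4 in DSF, 24.8, 23.8 and 26.2 in BSF_C, 22.1 and 23.1 in BSF and 12, 7.49 and 7.37 in con. The LSF libraries lay above all others and con lay lowest. The rise was 0.82 against BSF (SE 0.119, adjusted p = 7.37e-08) and 1.15 against DSF (SE 0.126, adjusted p = 1.49e-11). Hadhb, Hadh and Echs1, the partner subunit, the short chain dehydrogenase and the short chain hydratase, rose by 0.27, 0.24 and 0.32 against BSF. Their mean levels were 66.1 ± 3.75, 378 ± 2.66 and 77.2 ± 8.03 CPM in LSF (SD, n = 3) and 54.8 ± 1.87, 319.7 ± 1.79 and 61.9 ± 0.223 in BSF (n = 2). Of these 3 only Hadh was called against DSF (0.29), with Hadhb and Echs1 in DSF at 62.1 ± 0.308 and 76.3 ± 1.37 CPM (n = 2). Echs1 carries the second promoter match shown above.

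Genes for unsaturated chains stayed closer together. Of 5 such genes, Ech1, a dienoyl-CoA isomerase, was higher in LSF by 0.30 against BSF and 0.30 against DSF, at 58.4 ± 0.919 CPM in LSF, 47.3 ± 4.05 in BSF and 47.5 ± 1.1 in DSF. Eci1, an isomerase that moves double bonds, was at 15, 18.6 and 15.3 CPM in LSF, 18.2 and 19.8 in DSF, 14.6, 13 and 12.5 in BSF_C, 13.7 and 17.6 in BSF and 9.09, 10.6 and 10.4 in con. The LSF libraries overlapped those of BSF and DSF, and Eci1 was called in neither comparison. Eci2, a second isomerase, and Decr1 and Decr2, reductases of mitochondria and peroxisomes, were not called either, at 18.9 ± 1.2, 54.1 ± 3.29 and 43.6 ± 7.95 CPM in LSF and 19.9 ± 2.87, 53 ± 6.46 and 39.5 ± 1.04 in BSF.

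Of 5 peroxisomal genes, 3 were higher in LSF than in BSF and 4 than in DSF. Ehhadh was at 420.3, 418 and 429 CPM in LSF, 307 and 306 in DSF, 322, 332 and 321 in BSF_C, 309 and 305 in BSF and 277.5, 283 and 299.9 in con. LSF stood above all others, which spanned less than the gap to it. Its log2 fold change was 0.46 against BSF (SE 0.057, adjusted p = 7.54e-10) and 0.46 against DSF (SE 0.0572, adjusted p = 8.46e-10). Acaa1a, a peroxisomal thiolase, was at 180.1, 202 and 188 CPM in LSF, 129 and 124 in DSF, 130.3, 120.3 and 111 in BSF_C, 114 and 116 in BSF and 45.2, 55.1 and 47.7 in con. LSF was again apart from the rest, by 0.72 against BSF (SE 0.0696, adjusted p = 1.04e-13) and 0.59 against DSF (SE 0.0693, adjusted p = 1.72e-10). Its near copy Acaa1b was at 59.9, 58.8 and 60.2 CPM in LSF, 35.6 and 35.4 in DSF, 49.99, 48.8 and 56.8 in BSF_C, 53.7 and 50.1 in BSF and 0.206, 0.624 and 1.15 in con. Con was near 0 and DSF lay below the other 3 groups, with LSF over DSF by 0.75 (SE 0.0979, adjusted p = 5.11e-09) and over BSF by 0.20, not called (adjusted p = 0.087). Pex11a, which helps peroxisomes divide, rose by 0.28 against BSF and 0.54 against DSF, from 83.2 ± 0.817 CPM in BSF and 69.8 ± 1.99 in DSF to 101 ± 3.8 in LSF. The fifth gene, Hsdl2, a dehydrogenase-like protein, was at 30.1 ± 0.505 CPM in LSF and called in neither (0.16 and 0.29).

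The 3 thioesterases, which release fatty acids from CoA, were higher in LSF in both comparisons. Acot1, the cytosolic enzyme, was at 71.2, 66.9 and 68.3 CPM in LSF, 19.9 and 19.5 in DSF, 43, 43.7 and 44.9 in BSF_C, 45.8 and 39.5 in BSF and 15.7, 15 and 16.4 in con. The groups formed 4 levels without overlap, LSF highest, then BSF and BSF_C together, then DSF, then con. The log2 fold change of LSF was 0.70 against BSF (SE 0.0908, adjusted p = 3.5e-09) and 1.80 against DSF (SE 0.105, adjusted p = 6.99e-24). Acot2, its mitochondrial relative, was at 35.5, 35.3 and 36.4 CPM in LSF, 13.7 and 18.3 in DSF, 22.1, 24.7 and 24.2 in BSF_C, 22.1 and 24.4 in BSF and 12.6, 20.6 and 24.4 in con. LSF lay highest, and the con libraries spread over the range of DSF and BSF. LSF exceeded BSF by 0.62 (SE 0.128, adjusted p = 0.000106) and DSF by 1.16 (SE 0.139, adjusted p = 3.02e-10). Acot12, which acts on acetyl-CoA and whose promoter match has the fewest mismatches, was at 36.8, 38.2 and 34.8 CPM in LSF, 29.3 and 24 in DSF, 23.1, 23.2 and 28.9 in BSF_C, 22.9 and 26.1 in BSF and 1.65, 0.416 and 1.61 in con. LSF was highest and con near 0, and the 3 other groups overlapped. The rise was 0.58 against BSF (SE 0.121, adjusted p = 0.000138) and 0.46 against DSF (adjusted p = 0.00383).

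Pairs of near copies are uncertain, because nothing in the labels says how a read with several places in the genome was counted. Of all 75-base stretches of the longest Acot1 transcript 14.8% occur in Acot2, and 20.5% of those of Acot2 in Acot1. For Acaa1a and Acaa1b the shares are 12.5% and 28.5%, and for Cyp4a10 and Cyp4a31 they are 9.09% and 7.6%. The copies are neighbours: Acot2 (chr12:83987861-83993873) and Acot1 (chr12:84009490-84018371) lie side by side on the plus strand of GRCm38, Acaa1b and Acaa1a within chr9:119148023-119350299, and the 3 Cyp4a genes within chr4:115486200-115579015.

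The omega-oxidation genes were scarce, and none was called in LSF against BSF or DSF. Cyp4a10, a fatty acid hydroxylase and a classical PPARA target in liver, was at 5.31, 4.24 and 4.38 CPM in LSF, 2.99 and 3.04 in DSF, 3.44, 5.62 and 4.65 in BSF_C, 3.63 and 2.79 in BSF and 0.413, 0 and 0.23 in con. LSF lay above BSF, DSF and con and overlapped BSF_C, but was not called against BSF (0.55, adjusted p = 0.149) or DSF (0.63, adjusted p = 0.157). Cyp4a14 and Cyp4a31, 2 further hydroxylases, reached at most 2.38 and 2.11 CPM in a library and were called in no comparison among the groups other than con. Ucp2, a carrier of the inner mitochondrial membrane, was at 411, 419.5 and 441 CPM in LSF, 396 and 382 in DSF, 377, 371 and 347 in BSF_C, 339.9 and 337 in BSF and 215, 215 and 248 in con. LSF lay above all other libraries, by 0.32 against BSF (SE 0.0595, adjusted p = 1.26e-05), while the difference from DSF did not pass (0.12, adjusted p = 0.164).

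The comparison with BSF_C repeated most of the calls against BSF, with the same LSF libraries in both. All 4 dehydrogenases, all 5 later-step genes, all 3 thioesterases, 3 of 4 carnitine genes and 4 of 5 peroxisomal genes were higher in LSF than in BSF_C. The genes called there but not against BSF were Ppara (0.28), Crot (0.21), Eci2 (0.33), Acaa1b (0.20), Hsdl2 (0.34) and, on the lower side, Cpt2 (-0.14, adjusted p = 0.045). Pex11a was called against BSF and not against BSF_C (0.16). Acadl (0.87), Acaa2 (0.68), Acaa1a (0.66), Acot1 (0.65) and Acsl1 (0.64) followed Pdk4 in size. Whether a difference from BSF exceeds that from BSF_C was not tested beyond the comparison of those 2 groups.

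**Figure D3:**
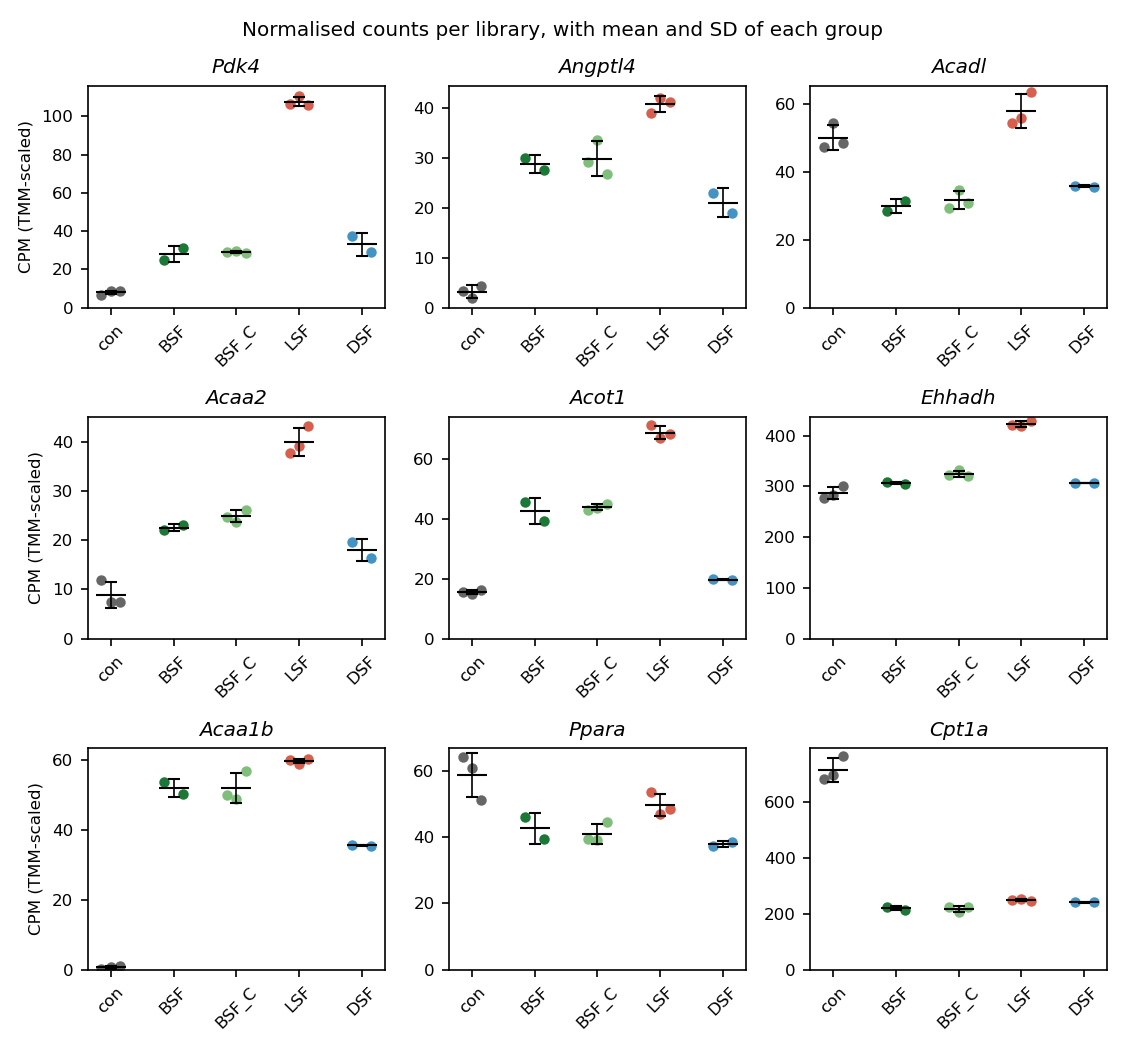
CPM of 9 genes in each library (points), with the mean and SD of each group (bars), for the 5 groups. LSF is the highest group for Pdk4, Angptl4, Acadl, Acaa2, Acot1, Ehhadh and Acaa1b, and con for Ppara and Cpt1a.

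**Figure D4:**
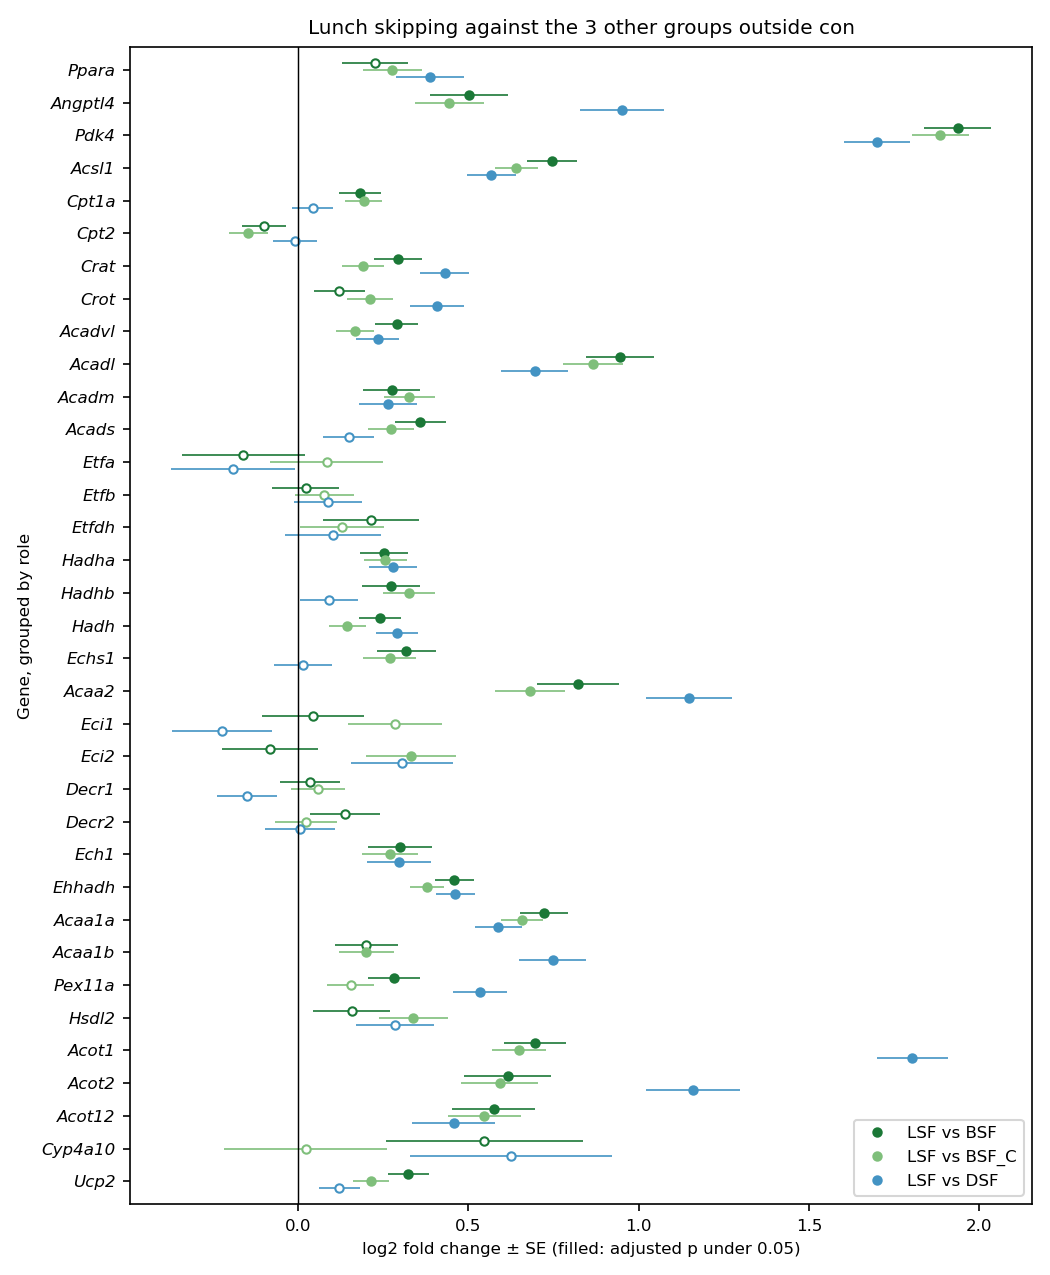
Log2 fold change of LSF against BSF (dark green), BSF_C (light green) and DSF (blue) for 35 genes grouped by role, with bars of 1 SE and filled points where the adjusted p is under 0.05. All filled points but that of Cpt2 against BSF_C lie right of 0, Pdk4 lies farthest right against BSF, and the points of Acot1, Acot2 and Acaa1b against DSF lie right of those against BSF.

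Of the 22 calls against BSF, 17 held when any 1 library was left out. Without BSF replicate 1 the calls of Hadha (adjusted p = 0.0541) and Ech1 (0.195) were lost, and without BSF replicate 2 those of Acadm (0.106), Hadhb (0.141) and Cpt1a (0.208). Leaving out LSF replicate 1 lost Acadm (0.0621) and Hadhb (0.0758), and LSF replicate 2 lost Cpt1a (0.0553). Library totals alone lost Acadm (0.0591), Hadhb (0.0645), Cpt1a (0.107) and Ech1 (0.0557), and the replicate block Cpt1a (0.0619). Of the 20 calls against DSF, 13 held in every case. Without DSF library S3, the calls of Acot12 (0.209), Acadvl (0.288), Hadh (0.144), Hadha (0.0834) and Ech1 (0.175) were lost, and the log2 fold changes of Acadvl and Hadh were 0.15 and 0.18. Without DSF library S2 those of Ppara (0.0656), Acadm (0.322) and Ech1 (0.0985) were lost. Leaving out LSF replicate 1 lost Acadm (0.12), LSF replicate 2 lost Ech1 (0.0566), and LSF replicate 3 lost Acadm (0.062), Acadvl (0.0549) and Ech1 (0.0563). Library totals alone lost Acadm (0.0799) and Ech1 (0.0649). Of the 27 calls against BSF_C, 16 held in every case. The calls of Ppara, Cpt1a, Cpt2, Crat, Crot, Acadvl, Hadh, Echs1, Eci2, Ech1 and Acaa1b were each lost without at least 1 LSF or BSF_C library, with adjusted p between 0.0503 and 0.213.

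Dinner skipping was then set against breakfast skipping. Few members differed: 2 of 37 were higher in DSF than in BSF and 6 lower, where 6.29% of all genes were higher and 5.9% lower. Against BSF_C, 2 were higher and 7 lower, where 6.08% were higher and 6.04% lower. The libraries did not overlap for 11 genes higher and 11 lower against BSF (28% and 28% of all genes), and for 8 and 12 against BSF_C (21.4% and 21.2%). The median log2 fold changes of the set were 0.01 and 0.02, and those of all genes 0.00 and 0.00. Acot1 had the largest fall, from 45.8 and 39.5 CPM in BSF and 43, 43.7 and 44.9 in BSF_C to 19.9 and 19.5 in DSF, toward the con level. The DSF libraries lay below every BSF and BSF_C library, and the log2 fold change was -1.11 against BSF (SE 0.118, edgeR adjusted p = 1.53e-11) and -1.15 against BSF_C (SE 0.109, adjusted p = 1.27e-13). Acaa1b was also lower in DSF, with log2 fold changes of -0.55 against BSF (SE 0.107, adjusted p = 0.000118) and -0.55 against BSF_C (adjusted p = 2.26e-05). These 2 genes were the ones whose call against BSF held when any 1 library was left out. Villus enterocyte marker sums were lower in DSF than in BSF and BSF_C, heart and striated muscle sums higher, and their part in the result was not tested.

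The other 6 calls against BSF were each lost without at least 1 library, with adjusted p between 0.0539 and 0.335. Angptl4 was lower in DSF (-0.45, adjusted p = 0.0205), and lost its call without either BSF library (0.169 and 0.0539) or DSF library S3 (0.292). Acot2 was also lower (-0.54, adjusted p = 0.0138), and without DSF library S2 its log2 fold change was -0.35 (adjusted p = 0.335). Without BSF replicate 2 its p was 0.172. Crot (-0.29) and Pex11a (-0.25) were lower and Echs1 (0.30) and Ucp2 (0.20) higher, and each of these 4 was lost whichever of the 4 BSF and DSF libraries was left out. Against BSF_C the lower genes were Acot1, Acot2, Acaa1b, Angptl4, Acaa2 (-0.47), Pex11a (-0.38) and Crat (-0.24), and the higher ones Eci1 (0.51) and Echs1 (0.25). Of these, Acot1, Acaa1b and Pex11a held without any 1 library. Pdk4 did not pass in DSF against BSF (0.24, adjusted p = 0.21) or BSF_C (0.19, adjusted p = 0.307).

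**Figure D5:**
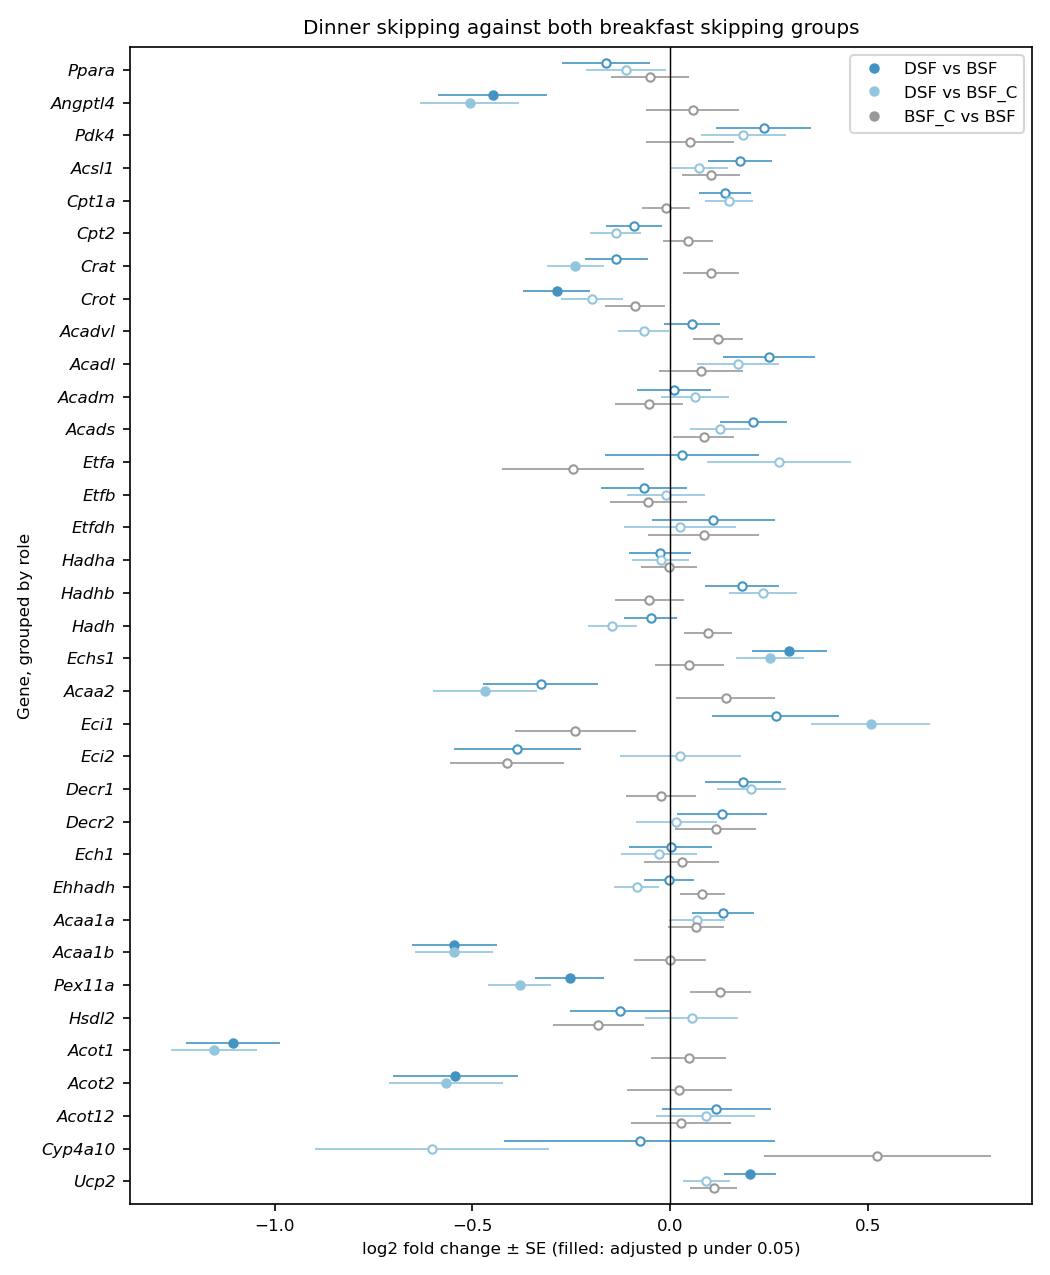
Log2 fold change of DSF against BSF (blue) and BSF_C (light blue), and of BSF_C against BSF (grey), for 35 genes grouped by role, with bars of 1 SE and filled points where the adjusted p is under 0.05. Acot1, Acot2, Acaa1b and Angptl4 lie left of 0 in both DSF comparisons, and no grey point is filled.

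Breakfast skipping and BSF_C were compared last among these groups, and no gene of the set separated them. Of 37 genes, 0 were called higher and 0 lower in BSF_C against BSF by edgeR, where 0.00699% of all genes were higher and 0% lower, and DESeq2 and limma-voom also called 0. The libraries did not overlap for 7 genes higher and 3 lower, against 11% and 10.4% of all genes. At an unadjusted p under 0.05 there was 1 gene by each of the 3 tools, Eci2, at 13.4, 15.7 and 16 CPM in BSF_C and 17.9 and 21.9 in BSF, with a log2 fold change of -0.41 (SE 0.144). The median over the set was 0.05, against 0.00 for all genes. A gene that misses the threshold is not shown to be equal in both groups.

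Against con most genes of any kind differed, and the set is read beside that background. Of 37 genes, 23 were higher and 8 lower in BSF than in con, where 38.2% of all genes were higher and 32% lower. In BSF_C, 27 were higher and 6 lower (39.8% and 33.3% of all genes), in LSF 29 and 5 (39% and 33%), and in DSF 24 and 7 (36.6% and 31.2%). The median log2 fold changes were 0.66, 0.58, 0.91 and 0.63, against 0.11, 0.12, 0.10 and 0.10 for all genes. Scaling by library totals alone moved the median of all genes in BSF against con from 0.11 to 0.29 and gave 28 genes higher and 5 lower. The 4 comparisons share the con libraries. The higher counts in all 4 include Cyp4a14 and Cyp4a31, which had 0 counts in con, and Cyp4a10 and Acaa1b, with no more than 2 and 5 in a con library. These genes passed the filter only through the other groups, so their calls were fixed in advance and say nothing about the set. Leaving out 1 library lost 5 of the 31 calls in BSF (Acsl1, Echs1, Eci1, Etfdh and Hadhb), 4 of 33 in BSF_C (Acot2, Eci1, Eci2 and Hadhb), 4 of 34 in LSF (Acadl, Decr2, Hadha and Ppara) and 4 of 31 in DSF (Acot1, Decr2, Eci2 and Etfdh). Keratinocyte marker sums were higher in con and villus, leukocyte and heart sums lower, beside each of these values, and their part was not tested.

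Cpt1a was the gene that went most strongly the other way, lower than con with log2 fold changes of -1.52 in LSF, -1.57 in DSF, -1.72 in BSF_C and -1.71 in BSF, with SE of 0.053 to 0.062 and a largest adjusted p of 6.34e-35. Cpt2 and Decr1, a reductase for unsaturated chains, were also lower in all 4 groups, with -0.39 and -0.54 in LSF. The calls of Cpt2 in BSF (adjusted p = 0.0706) and BSF_C (0.168) were lost with library totals alone. Hadha was called lower in all 4 groups too, with -0.41 in BSF and -0.16 in LSF. With GC and length trends removed its LSF value turned to 0.05 (adjusted p = 0.414), and with library totals alone it was -0.06 (0.402). The LSF call was also lost with only LSF and con in the fit (0.0634), and when LSF replicate 2 (adjusted p = 0.0783), LSF replicate 3 (0.0618), con replicate 1 (0.0715) or con replicate 3 (0.0505) was left out. Ppara was lower, with -0.47 in BSF, -0.52 in BSF_C and -0.63 in DSF. In LSF it was at -0.24 (adjusted p = 0.0127), a call lost without con replicate 1 (0.108) or LSF replicate 2 (0.0643), with the trends of GC content and length taken out (-0.07, adjusted p = 0.479) or with library totals alone (-0.15, 0.147). Acadl was lower in BSF (-0.74), BSF_C (-0.66) and DSF (-0.49), and higher in LSF by 0.21 (adjusted p = 0.0347). With GC and length trends removed this LSF value turned to -0.01 (adjusted p = 0.928), and DESeq2 (0.0782) and the replicate block (0.0513) also lost the call. It was lost too with LSF replicate 3 left out, where the log2 fold change was 0.14 (0.221), or with con replicate 1 (0.145) or con replicate 3 (0.0744) left out.

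Genes higher than con in all 4 groups included Acaa1b, with log2 fold changes of 5.75 in DSF to 6.50 in LSF, from 9 counts in the 3 con libraries together. Acaa1b passed the filter only through the other groups, so its calls against con say nothing about the set. Acot12 followed with 4.32 in BSF to 4.89 in LSF, from 17 counts in con. Angptl4 was higher by 2.73 in DSF to 3.69 in LSF, and Crot by 1.83 to 2.24 in the same groups. Pdk4 was higher by 3.76 in LSF, 2.06 in DSF, 1.87 in BSF_C and 1.82 in BSF. Acot1 was higher by 1.44, 1.49 and 2.14 in BSF, BSF_C and LSF. In DSF its log2 fold change was 0.33 (adjusted p = 0.0306), and this call was lost without DSF library S2 (0.116) or S3 (0.0795), con replicate 1 (0.057) or con replicate 2 (0.0815).

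Con had 0 counts of Cyp4a14 and Cyp4a31, which passed the filter only through the other groups and so had to differ. Against a floor of 3 counts over the con group (0.214 CPM), Cyp4a14 was at least 4.35-fold higher in LSF, 8.25-fold in DSF, 5.63-fold in BSF_C and 4.83-fold in BSF. Cyp4a31 was at least 5.34-fold, 6.72-fold, 6.94-fold and 5.4-fold higher in the same groups. Cyp4a10 had 3 counts in con and also passed the filter only through the other groups. Its ratio to con was 21.7 in LSF (95% exact interval 7.25 to 107), 14.1 in DSF (4.52 to 70.7), 21.4 in BSF_C (7.14 to 105) and 14.8 in BSF (4.79 to 74). These floors and intervals cover counting error only.

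Other genes of the same routes were read from 4 lists beside the set, chosen like it for known roles. Of 34 tested other fatty acid oxidation genes, 14 were higher and 1 lower in LSF than in BSF (16% and 13.6% of all genes). In LSF against DSF, 12 were higher and 0 lower (9.06% and 7.03% of all genes). In DSF against BSF, 1 was higher and 7 lower (6.29% and 5.9% of all genes). Without BSF replicate 1 the 14 became 8, without BSF replicate 2 or LSF replicate 1 they became 9, and with library totals alone 7. Leaving out BSF replicate 1 or either DSF library left 3 of the 7. Phyh, which starts the oxidation of phytanic acid, was higher in LSF than in BSF (0.49, adjusted p = 2.73e-05) and DSF (0.65, adjusted p = 1.24e-07). Slc25a20, the carnitine-acylcarnitine carrier, was lower in DSF than in BSF (-0.39, adjusted p = 0.00198), a call lost without DSF library S3 (0.0728) or BSF replicate 1 (0.0526), and not called in LSF against BSF (0.16). Acot4, a peroxisomal thioesterase, was lower in DSF than in BSF (-0.60, adjusted p = 2.16e-07).

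Of 7 tested genes of ketone body synthesis, use and transport, 2 were lower in LSF than in BSF (13.6% of all genes). In LSF against DSF, 3 were lower (7.03% of all genes). Calls in the other direction are not counted here. The 2 became 1 without BSF replicate 1. Aacs, which uses acetoacetate for lipid synthesis, was lower in LSF than in BSF (-0.43) and DSF (-0.80). Slc16a1, a monocarboxylate carrier, was lower too (-0.20 and -0.24), the first call lost without BSF replicate 1 (adjusted p = 0.0657) or with GC and length trends removed (0.0715).

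Among 22 genes of the PPAR family and its partners, 7 were higher and 1 lower in LSF than in BSF (16% and 13.6% of all genes). In LSF against DSF, 5 were higher and 3 lower (9.06% and 7.03% of all genes). In DSF against BSF, 3 were higher and 0 lower (6.29% and 5.9% of all genes). The 3 higher became 1 without DSF library S3 or either BSF library, and the 3 lower against DSF became 1 without either DSF library. Klf15, a glucocorticoid-responsive factor of fasting metabolism, was at 18.6, 18.5 and 19.8 CPM in LSF, 4.29 and 7.26 in DSF, 4.91, 5.97 and 3.92 in BSF_C, 3.63 and 4.9 in BSF and 1.45, 1.25 and 0.921 in con. LSF stood clear of every other library, by 2.13 against BSF (SE 0.207, adjusted p = 1.5e-13) and 1.71 against DSF (adjusted p = 1.02e-10). Creb3l3, a membrane-bound factor that works with PPARA in liver and gut, was at 329, 334 and 336 CPM in LSF, 219.9 and 229 in BSF and 200.3 and 195 in DSF, higher in LSF by 0.57 (adjusted p = 4.79e-12) and 0.75 (adjusted p = 1.31e-16). Ppard, the sister receptor that is common in intestinal crypts, had another order, with 223 and 234 CPM in DSF, 172, 174 and 166 in LSF, 165 and 173 in BSF, 184, 180.3 and 165 in BSF_C and 276.5, 269 and 295.5 in con. DSF exceeded BSF by 0.44 (adjusted p = 1.54e-06) and LSF was below DSF (-0.42, adjusted p = 1.47e-07) and not called against BSF (0.01). Ppargc1a, a coactivator of oxidation genes, was higher than BSF in LSF by 0.46 (adjusted p = 0.000349) and in DSF by 0.36 (adjusted p = 0.0261), the latter lost without DSF library S3 (0.273) or BSF replicate 1 (0.232) or 2 (0.0522), and with DESeq2 (0.0604). Pparg, the receptor best known from fat cells, was at 9.8 ± 0.563 CPM in LSF (SD, n = 3) and 7.32 ± 0.836 in BSF (n = 2), not called (0.41).

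Of 35 tested other PPAR targets in lipid handling, 18 were higher and 6 lower in LSF than in BSF (16% and 13.6% of all genes). In LSF against DSF, 14 were higher and 4 lower (9.06% and 7.03% of all genes). Both higher counts fell whichever library was left out, the 14 to 11 without LSF replicate 1. In DSF against BSF, 5 were higher and 6 lower (6.29% and 5.9% of all genes). With any 1 library of the last comparison left out, 1 to 3 were higher and 1 to 3 lower. Slc27a2, an acyl-CoA synthetase that also takes up fatty acids, was at 168, 166 and 161 CPM in LSF, 97.2 and 107 in BSF and 83.5 and 78.5 in DSF, higher in LSF by 0.69 (adjusted p = 1.43e-11) and 1.03 (adjusted p = 6.14e-18). Retsat, retinol saturase, was higher in LSF by 0.63 (adjusted p = 8.97e-12) and 0.93 (adjusted p = 3.93e-18). Pnpla2, the lipase that opens stored triglyceride, was higher than BSF in LSF by 0.48 and in DSF by 0.33. Fabp1, a fatty acid carrier of enterocytes and a PPARA target, did not follow the set, with 72.8, 69 and 66.4 CPM in LSF, 54 and 60.3 in DSF, 85.2, 82.2 and 82.2 in BSF_C, 82.1 and 96.4 in BSF and 24.8, 22.2 and 16.8 in con. It was highest in BSF and BSF_C, and LSF was below BSF (-0.37, adjusted p = 0.000376), a call lost without BSF replicate 2, where it was -0.24 (0.11). In DSF it was lower still than in BSF (-0.65, adjusted p = 1.93e-07), and LSF exceeded DSF by 0.28 (adjusted p = 0.0187), lost without DSF library S2 (0.327) or LSF replicate 1 (0.0922) or with library totals alone (0.0743). Fads2, a desaturase of polyunsaturated fatty acids, was lower in LSF than in DSF (-0.57, adjusted p = 4.61e-11).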

How the data were processed

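RNA was measured by poly(A) RNA sequencing in 13 libraries of 5 groups. The authors deposited raw whole-number counts per gene and sample, and STAR 2.7.2e, DESeq2 1.32.0, cutadapt 2.9 and FastQC 0.11.8 are named per the submitters' processing notes, with the multi-mapping and strand settings not given in the sources used here. The 2 DSF columns carry the numbers S2 and S3 where the labels count 1 and 2, so they keep the column names. Gene coordinates and lengths come from GENCODE M21 (GRCm38), which matched 21689 of 21868 genes and all 38 members. Counts were filtered by group (14300 genes and 99.91% of counts kept), scaled by TMM and fitted in 1 edgeR 4.0.16 quasi-likelihood model of the 5 groups (R 4.3.3, 8 residual degrees of freedom). The 10 pairwise contrasts were tested two-sided with Benjamini-Hochberg adjusted p over all tested genes and a threshold of 0.05, and every adjusted p in the text is from this edgeR fit unless another setting or tool is named. The SE is the log2 fold change over the root of F. The labels name no separate animals, so p-values measure the spread between these libraries, which had a common coefficient of biological variation of 4.87%. All members may be named. Values per library are given for 19 of them, fixed by name or as the 4 called members of a comparison with the largest change whose higher group averaged at least 5 CPM, and other pathway genes are those with the 4 smallest p or named by rule. The members, lists and tests were chosen with earlier results of these data known. DESeq2 1.42.0 and limma 3.58.1 gave alternatives, and figures were drawn with matplotlib 3.10.9. The script was tested on simulated counts. Removing trends with GC content and length (lowess span 0.3, 99.6% of tested genes) was chosen after the data were seen. Results on some genes beside the set are not reported here.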

Additional observations from a re-analysis of the deposited data

How the results depend on the processing

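Of 164 counts of members called higher or lower, recomputed under other settings, 149 kept their size and 15 did not. Medians over the set were not among the 164. The median log2 fold change in DSF against BSF, 0.01, turned to -0.007 with library totals alone. Medians of DSF against BSF and BSF_C also changed sign with some libraries left out. The members called higher in DSF against BSF were 4 with con left out of the fit and 1 with DESeq2, and against BSF_C they were 4 with con left out, with GC and length trends removed or with only the 2 groups fitted, and 1 with DESeq2. Those called lower in DSF against BSF were 3 with DESeq2. In LSF against BSF, 1 was lower with GC and length trends removed or with library totals alone. The 1 lower gene of LSF against BSF_C became 0 with DESeq2 size factors, the DESeq2 test or the replicate block. Against con, 5 were lower in BSF with library totals alone, and 3 in LSF with that setting or with GC and length trends removed. Removing GC and length trends turned the sign of Acadl, LSF vs con (-0.009173, adjusted p = 0.928), Hadha, LSF vs con (0.05371, 0.414), Etfa, BSF_C vs con (-0.4152, 0.0376), Hadhb, BSF vs con (-0.156, 0.134), Hadhb, BSF_C vs con (-0.1534, 0.105) and Ppargc1a, BSF vs con (-0.2589, 0.0334), and library totals alone that of Pnpla2, BSF vs con (0.1391, 0.0454). The cause was not tested. With 1 library left out, where a lone BSF or DSF library was assumed to vary like the other groups, the higher and lower counts ranged over 19 to 22 and 0 to 0 in LSF against BSF, 15 to 19 and 0 to 0 against DSF, 20 to 24 and 0 to 1 against BSF_C, and 27 to 30 and 3 to 5 against con. They ranged over 0 to 0 and 2 to 3 in DSF against BSF, and 0 to 2 and 4 to 7 against BSF_C. Replicate numbers did not pair the libraries: same-numbered deviations correlated at -0.0674 to 0.0297 over 15 pairs, and others at -0.0432 to 0.0524. With the replicate block the calls over all genes were 3626 instead of 4224 in LSF against BSF, 4382 instead of 4690 in LSF against BSF_C, and 5 instead of 1 in BSF_C against BSF. No paired analysis was possible for DSF because its column numbers differ from its labels. Depth and the groups of 2 libraries limit what could be detected for genes of few counts such as the Cyp4a family.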

Other observations

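Several lipid genes beside the set also differed between the feeding windows (SD, n = 3 in LSF and 2 in BSF and DSF). Scd1, the desaturase that makes monounsaturated fatty acids, was at 31.8 ± 1.39 CPM in LSF, 16.6 ± 0.488 in BSF and 17.6 ± 0.844 in DSF. It was higher in LSF with log2 fold changes of 0.94 (edgeR adjusted p = 7.8e-08) and 0.85 (adjusted p = 1.15e-06). Cyp4b1, a fatty acid hydroxylase, was at 37.5 ± 0.989 CPM in LSF, 22.3 ± 0.482 in BSF and 15.3 ± 2.63 in DSF. Scp2, a peroxisomal thiolase and sterol carrier, was at 303.7 ± 8.6 CPM in LSF and 306.8 ± 1.7 in BSF (log2 fold change -0.01, not called) and lower in DSF (231 ± 1.68, -0.41 against BSF, adjusted p = 2.03e-06). Oxct1, which uses ketone bodies, went the other way, with 160.6 ± 1.78 CPM in DSF, 126 ± 4.8 in BSF and 126 ± 4.39 in LSF (DSF against BSF 0.35, adjusted p = 0.000192). Acox2, a peroxisomal oxidase of branched chains and bile acid precursors, was scarce, with 81 counts over the LSF libraries, 14 over BSF and 10 over DSF.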
